A study of Mus musculus with 15 samples.

Results

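Gene expression was compared between 4n-whole and 4n-top hepatocytes, the tetraploid liver cells taken from the whole 4n gate and those taken from its upper part. The comparison used 7 of the 15 RNA-seq libraries, 4 of 4n-whole (mice 1 to 4) and 3 of 4n-top (mice 2, 3 and 4), so that 3 mice gave both populations. All genes that passed a filter on low counts were included, which were 17488 of the 55984 genes deposited. The cells came from livers of WT adult male C57BL/6JJcl mice and were sorted by flow cytometry on Hoechst fluorescence, a DNA stain. 4n-whole held all cells in the 4n gate, 4n-top those with a taller Hoechst pulse and 4n-bottom those with a lower one, and 2n-whole held the diploid cells. 4n-top was sorted in a single round, so it was enriched for mononucleated cells rather than pure. In the authors' counts of plated cells, binucleated cells were still a large part of 4n-top. Both populations were therefore mixtures of the same kinds of cell and differed only in part in composition. The authors left out the 4n-top sample of mouse 1 because of poor RNA quality. The libraries of 4n-bottom and 2n-whole (4 each) entered the fit as well, and their levels are given where they help to place a value.

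Hepatocytes become polyploid as the liver matures, and a tetraploid hepatocyte carries its DNA either in a single 4n nucleus (1x4n) or in a pair of 2n nuclei (2x2n). A 1x4n cell gives a taller and narrower pulse than a 2x2n cell of the same DNA content whose nuclei lie along the flow. This is the basis of the sort. The paper proposes that a 2x2n cell with its nuclei across the flow gives a pulse as tall, so such cells also enter 4n-top. Because 4n-whole holds both kinds of cell, and 4n-top is a part of it, the comparison shows how far an unselected tetraploid population departs from one enriched for mononucleated cells. Ploidy also varies along the liver lobule, between periportal cells near the incoming blood and pericentral cells around the central vein, so zonation genes are given first among the groups.

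Hepatocyte markers were abundant in all 7 libraries. Alb, which encodes albumin, had between 1377029 and 2892876 counts, and Hnf4a, a transcription factor of hepatocyte identity, had between 13813 and 29434. Of 123 markers of other liver and blood cells, 28 had 0 counts in all 7 libraries and 115 had fewer than 1000 counts in each. Total counts ranged from 22049498 to 38110566 in 4n-whole and from 25588972 to 41438193 in 4n-top, and 3 counts, taken as the detection limit for counting error, equalled 0.0724 to 0.136 CPM (counts scaled to the size of each library). The 4n-whole library of mouse 2 stood at the edge of several measures. It had the lowest total, the lowest share of mitochondrial rRNA (7.64%, against 9.83% to 16.0% in the other 4n-whole libraries and 10.6% to 11.42% in 4n-top) and the highest share of Malat1, a long noncoding RNA kept in the nucleus (1.00%, against 0.54% to 0.67% and 0.43% to 0.59%). Many values that moved without this library are also given without it, an alternative chosen after seeing the data. This was not done for every gene named. In bulk RNA, fewer cells of a type and less RNA per cell cannot be told apart.

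**Figure D1:**
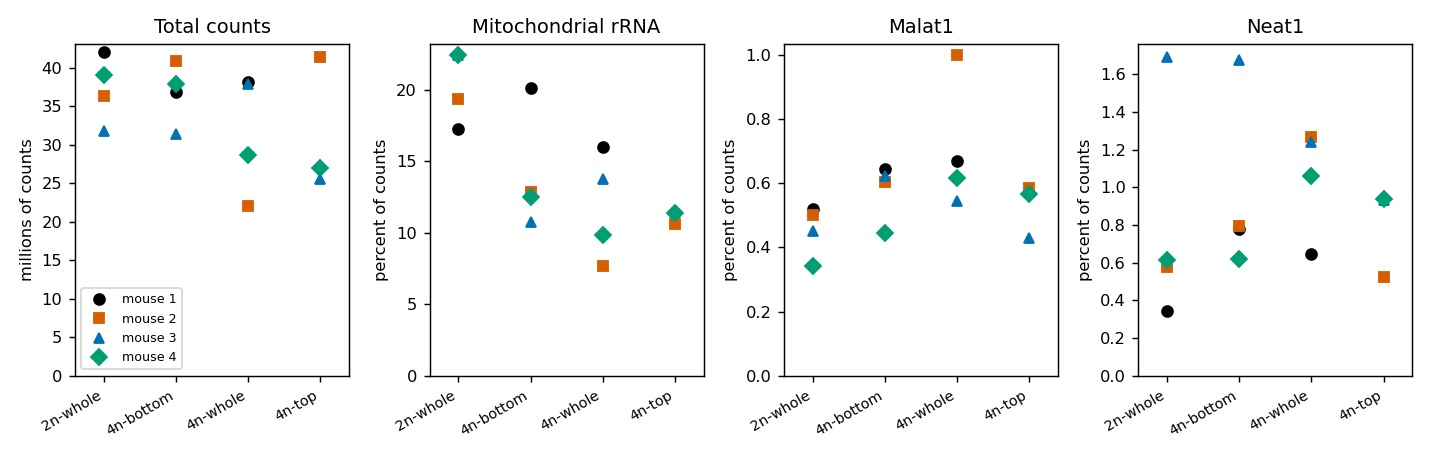
Total counts and the percent of counts on mitochondrial rRNA, Malat1 and Neat1 in each of the 15 libraries, by population and mouse. In 4n-whole, mouse 2 (orange square) had the lowest total, the lowest mitochondrial rRNA share (7.64%) and the highest Malat1 share (1.00%).

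No gene passed the test between 4n-whole and 4n-top. With edgeR's quasi-likelihood test and the mouse in the model, 0 of 17488 genes (0%) were called, for which an adjusted p under 0.05 and a log2 fold change beyond ±0.5 were required, and the smallest adjusted p was 0.897, for Glul. At an unadjusted p under 0.05 there were 700 genes (4.00%), where a flat distribution would give 874, with 358 higher (2.05%) and 342 lower (1.96%) in 4n-whole. Without the 4n-whole library of mouse 2 there were 414, and without mouse 2 altogether 439. Other fits tested other numbers of genes or gave other counts. Without the mouse in the model the number was 288. With only the 7 libraries of both populations it was 1134 of 14448 genes tested (569 higher and 565 lower). With ComBat-seq followed by DESeq2, run without the filter on low counts, it was 1490 of 39304 (828 higher and 662 lower). That is a smaller share than the 4.00% of the main fit. DESeq2 with the mouse in the model called 40 genes, 36 of them with fitted log2 fold changes beyond ±10, and ComBat-seq followed by DESeq2 called 4. In the same edgeR fit, which shares these libraries, 4n-whole differed from 2n-whole in 607 genes and from 4n-bottom in 1, while 4n-top differed from 2n-whole in 168 and from 4n-bottom in 2.

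The size of difference that the data leave room for depended on expression level. Among the 1202 genes with a mean of at least 100 CPM, the 95% interval of the log2 fold change lay entirely within ±0.5 for 94.4%, and the median half-width was 0.21. Among the 5646 genes between 10 and 100 CPM this held for 75.5%, and the interval lay within ±1 for 99.8%. From 1 to 10 CPM the share within ±0.5 was 5.17% of 4782 genes, and below 1 CPM it was 0% of 5858 genes. Below 1 CPM the median half-width was 2.82, so that even large differences were not detectable at this depth. These intervals were not adjusted for the number of genes.

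**Figure D2:**
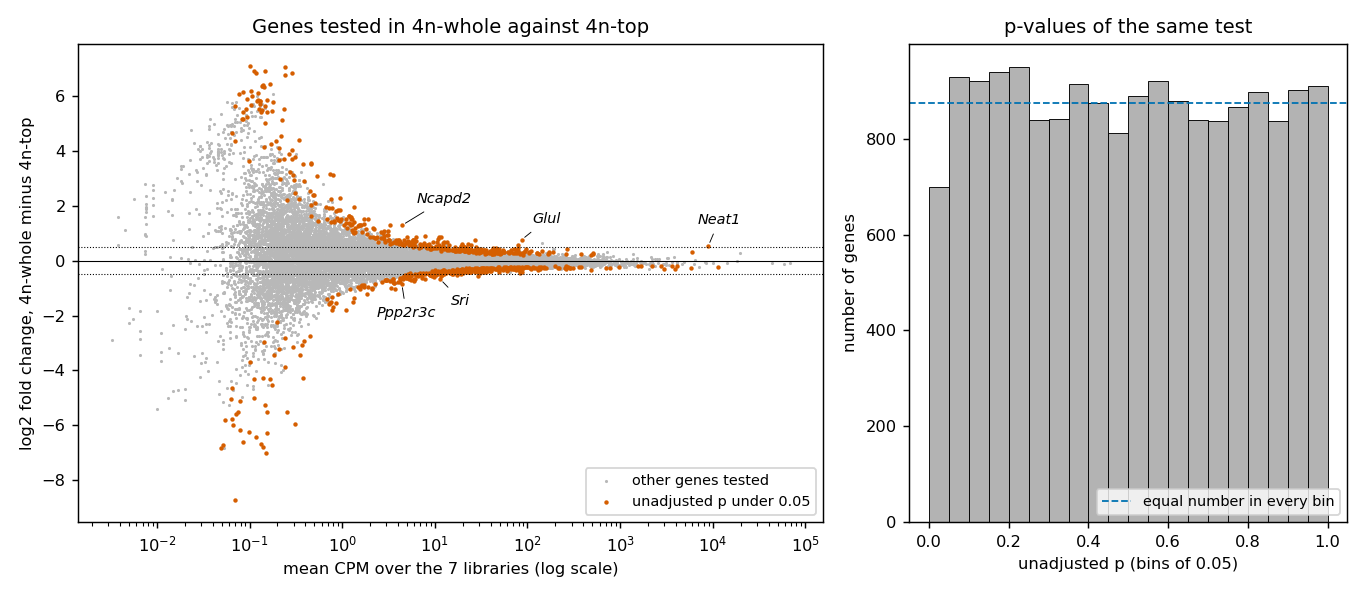
Left, log2 fold change of 4n-whole minus 4n-top against the mean CPM of the 7 libraries (log scale) for the genes tested, with the 700 genes at an unadjusted p under 0.05 in orange and dotted lines at ±0.5. Right, number of genes per p-value bin of 0.05, in which the lowest bin holds 700 genes and the dashed line marks an equal number in every bin.

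Within a mouse, 4n-whole and 4n-top differed from gene to gene by a similar amount in mice 3 and 4 and by more in mouse 2. Over the 11630 genes with a mean of at least 1 CPM, the median absolute log2 difference between 4n-whole and 4n-top was 0.31 in mouse 2, 0.17 in mouse 3 and 0.20 in mouse 4. Between 4n-whole and 4n-bottom it was 0.31, 0.19 and 0.24 in these mice. Between 4n-top and 4n-bottom it was 0.16, 0.21 and 0.19, so mouse 2 was wide only in the pairs with its 4n-whole library. A gene was higher in 4n-whole in all 3 mice for 12.8% of the genes tested and was counted as lower in all 3 for 15.0%. The share of lower genes is an upper limit. Genes with 0 counts in both libraries of mouse 2 or 3 were counted as lower there through rounding. The 4n-whole libraries lay entirely above the 4n-top libraries for 289 genes (1.65%) and entirely below for 290 (1.66%). Labels assigned at random to 4 and 3 libraries would give a share of about 0.0286 in each direction, and neither share exceeded it.

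Glul encodes glutamine synthetase, which marks the innermost ring of hepatocytes around the central vein, and its gene spans 153775690 to 153785469 on chromosome 1 (GRCm39). In 4n-whole it was at 111, 44.7, 82.1 and 176 CPM in mice 1 to 4, and in 4n-top at 26.1, 64.6 and 105 CPM in mice 2, 3 and 4. The populations overlapped because mice differed widely, but in each of the 3 mice 4n-whole was the higher. The log2 fold change was 0.77 (95% interval 0.45 to 1.09), with an adjusted p of 0.897 in edgeR's test. Of 15 alternative fits 4 called it, DESeq2 with the mouse in the model (adjusted p = 0.00308), ComBat-seq then DESeq2 (adjusted p = 0.0194), edgeR with no filter on low counts (adjusted p = 2.02e-06) and edgeR without mouse 3 (adjusted p = 0.042), and over all 15 the adjusted p ranged up to 1. Its log2 fold change stayed positive, from 0.63 to 0.91. In 4n-bottom of mice 2, 3 and 4, Glul was at 41.0, 141 and 211 CPM, so that 4n-top had the lowest level of the 4n populations in each of these mice. In 2n-whole the mean was 40.7 CPM. A gene on each strand overlaps Glul in the annotation, and the strand setting of the counting is not given in the sources used here.

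Slc1a2, a glutamate transporter of pericentral hepatocytes, was also higher in 4n-whole in each matched mouse. It was at 23.7, 5.41, 41.9 and 54.6 CPM in 4n-whole and at 4.80, 33.0 and 26.4 CPM in 4n-top, with a log2 fold change of 0.74 (95% interval 0.33 to 1.14, adjusted p = 0.984, edgeR). Its level in 4n-bottom was 11.42, 61.4 and 62.3 CPM in mice 2, 3 and 4, above both other 4n populations in each mouse. Its log2 fold change was 0.94 without the 4n-whole library of mouse 2. Without the filter on low counts Slc1a2 was called (adjusted p = 0.00975, edgeR), and over all alternatives its adjusted p ranged up to 1.

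Cyp2e1, Cyp1a2 and Csad had log2 fold changes between 0.03 and 0.08. Cyp2e1, a cytochrome P450 of ethanol and drug oxidation, was at 1523, 432, 1822 and 1602 CPM in 4n-whole and at 448, 2188 and 1637 CPM in 4n-top. Mouse 2 was low in both populations, and the log2 fold change was 0.08 (95% interval -0.34 to 0.49), although 4n-whole was slightly lower in all 3 matched mice. Without mouse 1, which has no 4n-top library, it was -0.12, and without the 4n-whole library of mouse 2 it was 0.30. Cyp1a2, a P450 that oxidizes aromatic amines, was at 520, 185, 388 and 518 CPM against 193, 463 and 495 CPM (log2 fold change 0.07, 95% interval -0.26 to 0.41, and 0.23 without the 4n-whole library of mouse 2). Csad, which encodes an enzyme of taurine synthesis, was at 89.5, 209, 202 and 225 CPM in 4n-whole and at 187, 257 and 206 CPM in 4n-top. Its log2 fold change of 0.03 (95% interval -0.19 to 0.26) changed sign in 4 alternatives, and its mean was 113 CPM in 4n-bottom and 80.5 CPM in 2n-whole.

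**Figure D3:**
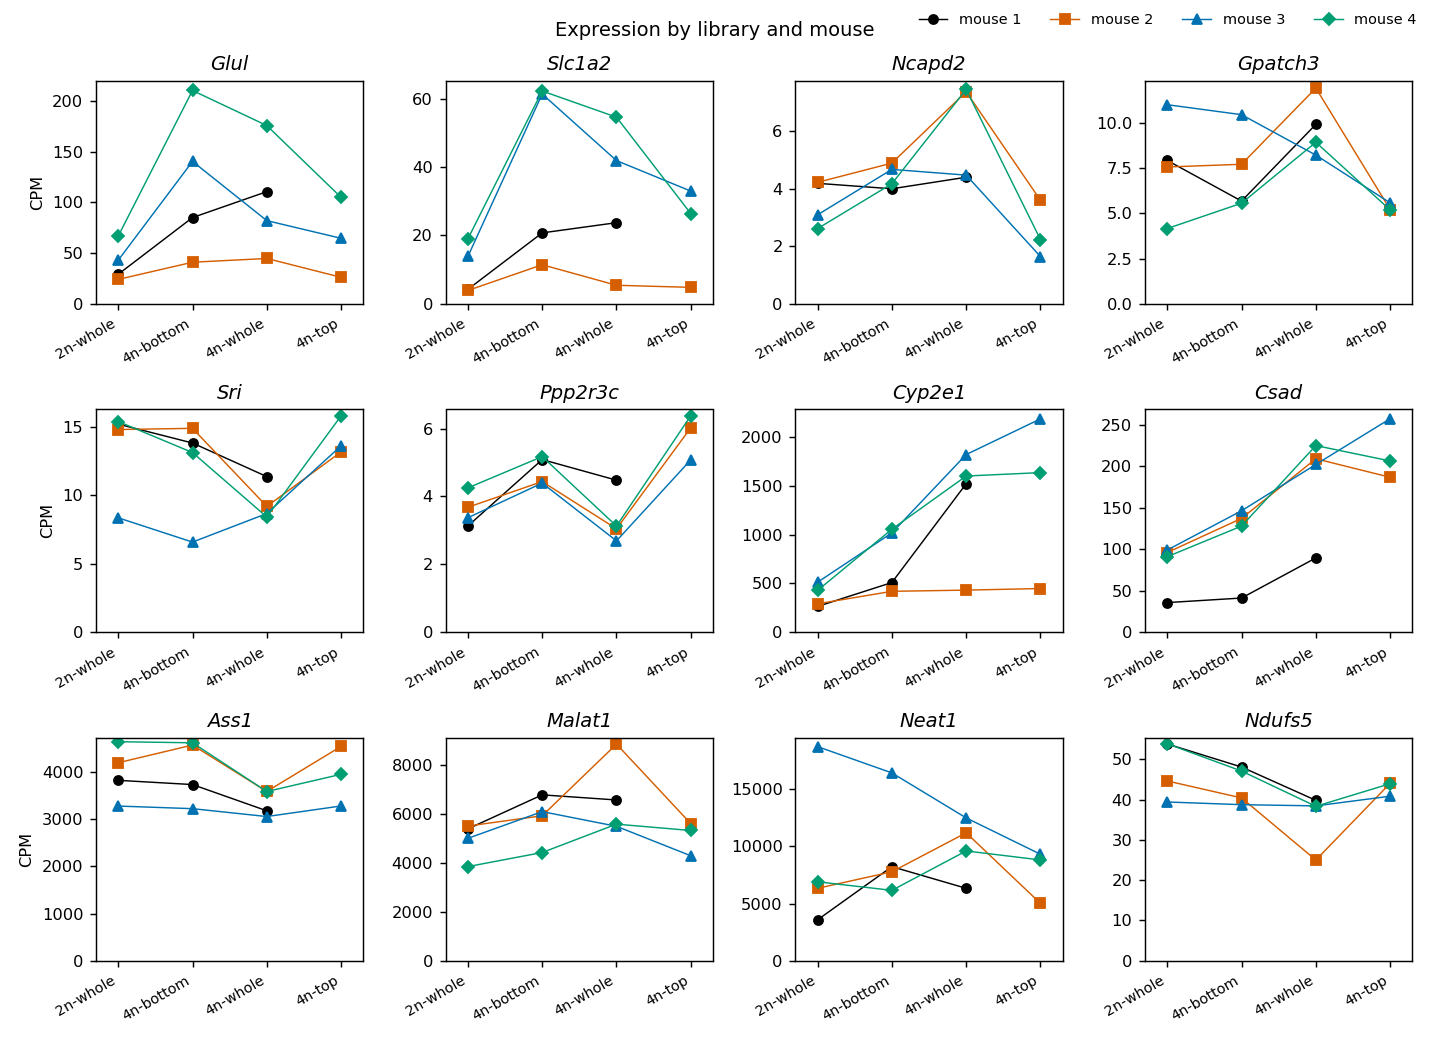
Expression (CPM) of 12 genes in 2n-whole, 4n-bottom, 4n-whole and 4n-top libraries, with lines joining the libraries of 1 mouse. In mice 2, 3 and 4, Glul, Slc1a2 and Ncapd2 were lower in 4n-top than in 4n-whole, whereas Csad was higher in 4n-top in mouse 3 only.

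As a group, pericentral genes had no uniform direction. Of 32 tested, 0 were called, 2 (Glul and Slc1a2) had an unadjusted p under 0.05 and were higher in 4n-whole, and the median log2 fold change was 0.08 beside -0.00087 over all genes. The median within a mouse was 0.04 in mouse 2, -0.14 in mouse 3 and 0.09 in mouse 4. Without the 4n-whole library of mouse 2 the median was 0.25 with 7 genes at an unadjusted p under 0.05, and without mouse 1 it was -0.06. Summed over the list, expression was 3790 to 7273 CPM in 4n-whole and 4144 to 7764 CPM in 4n-top, ranges that overlapped.

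Of 29 periportal genes tested, 0 were called, 2 were lower in 4n-whole at an unadjusted p under 0.05 and the median was -0.07. These were Ass1 and Cyp2f2. Ass1, which encodes a urea cycle enzyme, was at 3178, 3589, 3057 and 3587 CPM in 4n-whole and at 4545, 3281 and 3953 CPM in 4n-top, a log2 fold change of -0.19 (95% interval -0.36 to -0.03, adjusted p = 0.984, edgeR). Cyp2f2, a periportal P450, had a log2 fold change of -0.27 (95% interval -0.51 to -0.02), with 4n-whole lower in each matched mouse. It was -0.19 without the 4n-whole library of mouse 2. Of the 29 periportal genes, 25 had intervals within ±0.5. Among 6 midlobular genes 0 had an unadjusted p under 0.05, and Hamp, which encodes the iron hormone hepcidin, had a log2 fold change of -0.18 (95% interval -0.48 to 0.12, and -0.08 without the 4n-whole library of mouse 2).

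Apart from Glul, the genes with the smallest p-values and higher values in 4n-whole were Ncapd2, Pcsk4, Gpatch3 and Cep131. Ncapd2 encodes a subunit of condensin I, the complex that compacts chromosomes for mitosis, and spans 125144962 to 125169080 on chromosome 6. It was at 4.40, 7.38, 4.48 and 7.46 CPM in 4n-whole and at 3.60, 1.64 and 2.23 CPM in 4n-top, without overlap, and the log2 fold change was 1.30 (95% interval 0.72 to 1.87, adjusted p = 0.897, edgeR). It was called by DESeq2 with the mouse in the model (adjusted p = 0.0097) and by ComBat-seq then DESeq2 (adjusted p = 0.00259), and in the 15 alternatives its adjusted p ranged up to 1. 3 other annotated genes overlap it. Gpatch3, which encodes a G-patch domain protein, was at 9.94, 11.9, 8.23 and 8.94 CPM against 5.22, 5.59 and 5.19 CPM, a log2 fold change of 0.89 (95% interval 0.41 to 1.38) without overlap. The log2 fold change was 0.86 for Pcsk4, a proprotein convertase gene, and 0.66 for Cep131, a centrosomal protein gene, both higher in 4n-whole in all 3 mice (adjusted p = 0.984 for both, edgeR).

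In the opposite direction these genes were Ccl9, Sri, Oxnad1, Ppp2r3c and Efcab14. Sri encodes sorcin, a calcium-binding protein, and was at 11.35, 9.18, 8.66 and 8.41 CPM in 4n-whole and at 13.2, 13.6 and 15.8 CPM in 4n-top, a log2 fold change of -0.68 (95% interval -1.07 to -0.28). Ppp2r3c encodes a regulatory subunit of protein phosphatase 2A and was at 4.48, 3.05, 2.69 and 3.13 CPM against 6.03, 5.08 and 6.38 CPM, a log2 fold change of -0.85 (95% interval -1.37 to -0.34). Neither gene overlapped between the populations, and ComBat-seq then DESeq2 called Ppp2r3c (adjusted p = 0.0262). Ccl9, a chemokine gene, had a log2 fold change of -0.55 (-0.39 without the 4n-whole library of mouse 2). It was -0.50 for Oxnad1, an oxidoreductase gene, and -0.41 for Efcab14, an EF-hand protein gene. All 5 were lower in 4n-whole in each matched mouse, and all 5 had an adjusted p of 0.984 (edgeR).

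Lists of secreted liver proteins had medians below 0 and 0 genes called. Of 38 lists with at least 10 tested genes, 26 had a median below 0 in the fit, 25 in mouse 2 and 18 in mouse 4. In mouse 3 the count was at most 25. It includes the DNA replication, mitosis, extracellular matrix, endothelial and cholangiocyte lists, whose median in mouse 3 was 0 apart from rounding. The median over all genes was itself -0.06 at a mean of 100 CPM and over and -0.03 from 10 to 100 CPM, and no set test was made. Coagulation and complement genes had a median log2 fold change of -0.15 (39 tested, 0 called, 5 lower and 0 higher at an unadjusted p under 0.05), with -0.37 in mouse 2, -0.07 in mouse 3 and -0.13 in mouse 4. F9, clotting factor IX, was at 92.8, 47.5, 98.6 and 76.6 CPM in 4n-whole and at 77.3, 104 and 95.2 CPM in 4n-top (log2 fold change -0.31, 95% interval -0.59 to -0.03). Its lowest library was 4n-whole of mouse 2, and it was -0.15 without it. Without that library the median of the coagulation and complement list was -0.07 and 0 of its genes had an unadjusted p under 0.05. Plasma carrier proteins and apolipoproteins had a median of -0.13, with 4 of 36 lower at an unadjusted p under 0.05, and -0.07 with 0 of them without that library. Apob, the structural protein of very low density lipoprotein, had a log2 fold change of -0.22 in the full fit and -0.10 without it. Alb was at 49839, 55203, 68435 and 49605 CPM in 4n-whole and at 66783, 73187 and 48549 CPM in 4n-top (log2 fold change -0.12, 95% interval -0.28 to 0.04).

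Metabolic lists had 0 genes called and small negative medians. The median was -0.09 for cytochrome P450 enzymes of phase I (51 tested, 1 higher and 3 lower at an unadjusted p under 0.05), -0.09 for phase II conjugation (48 tested, 2 higher and 4 lower) and -0.07 for bile acid synthesis and transport (31 tested, 2 lower). It was -0.09 for fatty acid oxidation (42 tested, 1 lower), -0.09 for the urea cycle and amino acid breakdown (41 tested, 3 lower), -0.07 for branched chain amino acid breakdown (23 tested, 1 higher and 1 lower) and -0.01 for heme synthesis and breakdown (16 tested, 0 in either direction). Without the 4n-whole library of mouse 2 the medians were -0.04 for phase I, -0.01 for phase II, -0.02 for bile acids, -0.04 for fatty acid oxidation, -0.06 for the urea cycle and amino acids and -0.01 for branched chain amino acids. Slc10a1, which takes up bile acids from the blood, had a log2 fold change of -0.27 (95% interval -0.50 to -0.03), and -0.17 without that library. Sult5a1, a sulfotransferase gene, was higher in 4n-whole in each matched mouse, with a log2 fold change of 0.55 (95% interval 0.17 to 0.93). Bcat2, a branched chain aminotransferase gene, had a log2 fold change of 0.43 (0.25 without that library) and Bckdha, a subunit of the next enzyme in that pathway, of -0.29 (-0.18 without it). None of these genes passed the adjusted threshold.

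Nuclear genes for mitochondrial and ribosomal proteins also had medians farthest below 0 in mouse 2. Respiratory chain subunits had a median of -0.11, with 14 of 86 (16.3%) lower at an unadjusted p under 0.05 and 0 higher. The mice gave -0.29, -0.03 and -0.11, and without the 4n-whole library of mouse 2 the median was -0.07 with 1 gene at an unadjusted p under 0.05. Ndufs5, a complex I subunit, was at 39.9, 25.0, 38.5 and 38.4 CPM in 4n-whole and at 44.1, 40.9 and 44.0 CPM in 4n-top, and its log2 fold change of -0.35 was -0.21 without that library. Cytosolic ribosomal protein genes had a median of -0.14 (6 of 86 lower), and mitochondrial ribosomal protein genes of -0.11 (6 of 77 lower). Without that library these medians were -0.06 and -0.07, respectively. Of the 13 messenger RNAs of the mitochondrial genome, 0 had an unadjusted p under 0.05, and their medians by mouse were 0.06, 0.32 and -0.35. The part of RNA quality or depth in these values was not tested.

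**Figure D4:**
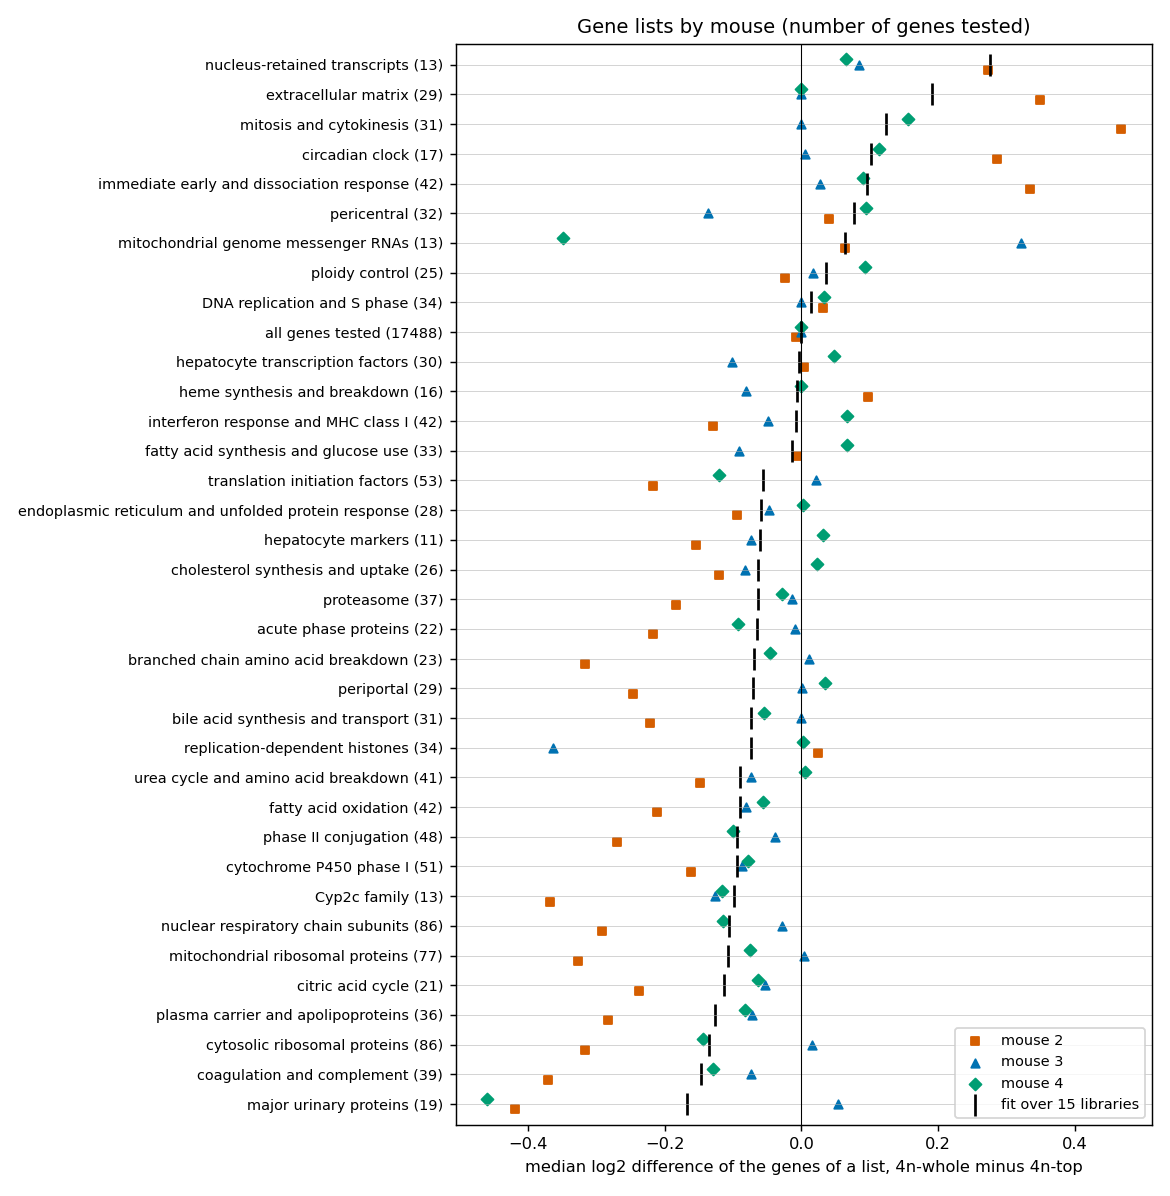
Median log2 difference of 4n-whole minus 4n-top over the genes of each list in mice 2, 3 and 4 (symbols) and in the fit over 15 libraries (vertical mark), with the number of genes tested. Most secretory, metabolic and ribosomal lists lie below 0 with mouse 2 farthest out, as for coagulation and complement (-0.37, -0.07 and -0.13).

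RNAs kept in the nucleus had a median above 0 but no uniform direction. Of 13 such transcripts tested, 8 had a log2 fold change above 0 and 0 were called. At an unadjusted p under 0.05, 4 were higher in 4n-whole, beside 2.05% of all genes tested. The median log2 fold change was 0.28, and within mice 2, 3 and 4 the median was 0.27, 0.08 and 0.07. Neat1, the scaffold RNA of paraspeckles, was at 6336, 11193, 12496 and 9604 CPM in 4n-whole and at 5014, 9315 and 8816 CPM in 4n-top (log2 fold change 0.55, 95% interval 0.12 to 0.97). It was 0.34 without the 4n-whole library of mouse 2. Malat1 had a log2 fold change of 0.32 (95% interval 0.09 to 0.55), and the difference was 0.66 in mouse 2, 0.36 in mouse 3 and 0.07 in mouse 4. It was 0.19 without that library. The median of the list was then 0.09 and 1 gene had an unadjusted p under 0.05.

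Immediate early genes, which respond to tissue dissociation within minutes to hours, were above 0 for 31 of 42 genes, with a median of 0.10. Of these genes 4 were higher and 1 lower in 4n-whole at an unadjusted p under 0.05. Klf6, a zinc finger factor gene, was at 5.25, 12.5, 8.42 and 8.22 CPM against 8.13, 5.00 and 5.68 CPM (log2 fold change 0.63, 95% interval 0.26 to 1.01). Mouse 2 had the highest 4n-whole value. The median was 0.34 in mouse 2, 0.03 in mouse 3 and 0.09 in mouse 4. Without the 4n-whole library of mouse 2 the median was 0.06, with 1 gene higher and 2 lower at an unadjusted p under 0.05, while Klf6 was at 0.62. The part of the isolation of the cells was not tested.

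Genes of mitosis and of ploidy control had 0 genes called. Of 31 mitosis and cytokinesis genes and 25 ploidy control genes, 0 had an unadjusted p under 0.05 in either direction. Ncapd2, described above, is not in these lists. Mki67, a marker of cycling cells, was at 2.32, 5.45, 0.16 and 0.38 CPM in 4n-whole and at 3.51, 0 and 0.07 CPM in 4n-top, and the last 2 values were at or under the detection limit. Of the 31 mitosis and cytokinesis genes, 1 had an interval within ±0.5.

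Most markers of other cell types were low in both populations. Summed endothelial markers were 12.8 to 57.8 CPM in 4n-whole and 12.7 to 42.8 CPM in 4n-top, and those of Kupffer cells and macrophages were 48.1 to 145 CPM and 93.4 to 143 CPM. The latter sum was mostly Slc40a1, an iron exporter gene that hepatocytes also express, with 1511 to 5357 counts, while each other member had at most 58. Over the 11 genes of that list tested, the fitted median was 1.44 (0.50 without the 4n-whole library of mouse 2). Within mice 2, 3 and 4 the median was only 0.20, 0.27 and 0.38. Of these genes 1 was higher in 4n-whole at an unadjusted p under 0.05 and 0 were called. That gene, Clec4f, a receptor gene of Kupffer cells, was at 0.26, 0.56, 0.32 and 0.51 CPM in 4n-whole and at 0.05, 0.08 and 0.14 CPM in 4n-top without overlap, from 2 to 16 counts a library. Of 23 endothelial genes tested, 14 were above 0, 3 were higher in 4n-whole at an unadjusted p under 0.05 and 0 were called. Their median was 0.22, 0 and 0 in mice 2, 3 and 4. Stab1, a scavenger receptor gene of sinusoidal endothelium, was at 1.62, 4.05, 1.04 and 0.95 CPM against 2.10, 0.39 and 0.28 CPM. Summed stellate cell and fibroblast markers, mostly Cxcl12, were 177 to 317 CPM in 4n-whole and 214 to 317 CPM in 4n-top. Summed cholangiocyte markers were 321 to 376 CPM and 335 to 378 CPM. The part of such cells in the values above was not tested.

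4n-whole was also set against the middle of 4n-top and 4n-bottom, which share its gate. In the authors' counts of plated cells, its share of binucleated cells was nearer to that of 4n-top than to that of 4n-bottom. The mean of both is therefore not the value that its mix of cells would give. With edgeR 0 genes (0%) were called against the mean of both, and 1042 (5.96%) had an unadjusted p under 0.05. This number was 582 without the 4n-whole library of mouse 2, 544 without mouse 2 altogether and 1678 without mouse 3. DESeq2 called 33 genes, of which 25 lay beyond ±10 on the log2 scale. Of the 11630 genes with a mean of at least 1 CPM, 4n-whole lay between 4n-top and 4n-bottom for 19.0% in mouse 2, 39.1% in mouse 3 and 27.4% in mouse 4. It lay above both for 36.8%, 29.3% and 34.5%, and below both for 44.2%, 31.6% and 38.1%. The shares that noise alone would give were not worked out.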

How the data were processed

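RNA from sorted hepatocytes was sequenced by the authors from SMART-Seq Stranded libraries. According to the submitters' processing notes, reads were aligned to GRCm39 with STAR 2.7.11a and counted per gene with featureCounts. The deposited values are raw counts for 55984 genes, before any adjustment for the mouse. The annotation and the strand and read pair settings are not given in the sources used here. From 74.2% to 81.4% of the counts between 1 and 10 in a library were even numbers, so 3 counts may stand for fewer fragments.

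Counts were tested with edgeR 4.0.16 (R 4.3.3) after TMM normalization and edgeR's filter (minimum count 10, minimum total 15), with all 15 libraries, population as factor and mouse as block. The spread is thus shared with 2n-whole and 4n-bottom. The Benjamini-Hochberg adjustment ran over all genes tested. Wald intervals at 95% used the same fit, and CPM values are TMM-normalized. Log2 differences within a mouse used a prior count of 2. The test and its intervals were tested on data simulated from the fitted model itself. Such data cannot show how they behave with an outlying library. Positions are from GENCODE for GRCm39. The subject number in the labels names the animal and pairs the samples. The residual correlation of 4n-whole and 4n-top libraries of the same mouse was 0.35, 0.50 and 0.34 in mice 2, 3 and 4.

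Genes named are the 5 in each direction with the smallest p and a mean of at least 1 CPM, since none was called, zonation landmarks, and up to 3 of the smallest p in each list. 1 named gene is not reported here. Lists and genes were chosen with earlier results of these data known, and no set test was run. Alternatives were no block, DESeq2 1.42.0, ComBat-seq (sva 3.50.0), other normalizations and filters, fewer libraries or genes, halved counts, and leaving out each mouse.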

Additional observations from a re-analysis of the deposited data

Results flagged for a closer look

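In 4 of 65 measures, 1 of the 4 libraries of 4n-whole lay apart from the other 3 by Dixon's test at the 95% level, and chance alone flags about 1 in 20 groups. Mouse 1 was high for Ccl9 (39.3 CPM, with the next library at 23.4 CPM) and for Efcab14 (32.5 CPM, next 24.1 CPM). It was low for Csad (89.5 CPM, next 202 CPM). Mouse 1 also had the lowest Csad in 2n-whole (35.7 CPM) and 4n-bottom (41.2 CPM), and the highest Ccl9 there (50.2 and 56.8 CPM). Its Efcab14 was the highest in 4n-bottom (29.8 CPM) but not in 2n-whole (27.5 CPM). Mouse 2 was low for Ndufs5 (25.0 CPM, next 38.4 CPM). Mouse 1 has no 4n-top library, so that its value enters the comparison only through the other populations of the same mouse.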

How the results depend on the processing

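Of the alternatives for 4n-whole against 4n-top, DESeq2 with the replicate block called 40 genes, edgeR with no filter on low counts 5 (Fam193b, Glul, Mir6236, Neat1 and Slc1a2) and ComBat-seq then DESeq2 4 (Glul, Gm49422, Ncapd2 and Ppp2r3c). With each mouse left out in turn, 0 to 1 genes were called, the 1 being Glul without mouse 3. Against the mean of 4n-top and 4n-bottom, DESeq2 with the replicate block called 33 genes and edgeR with no filter 11. With each mouse left out in turn this count was 0 to 14, with 3 without mouse 2 and 14 without mouse 3. Without the replicate block 0 genes were called in either comparison, and 288 rather than 700 had an unadjusted p under 0.05 for 4n-whole against 4n-top. Some log2 fold changes turned sign. Without the block they were 0.057 for Ugt2b38 (from -0.46), -0.018 for Nr1i3 (from 0.37), -0.041 for Per1 (from 0.47), -0.26 for Csad (from 0.03) and -0.083 for Cyp2e1 (from 0.08). With only the 7 libraries of both populations they were -0.10 for Cyp2e1, -0.069 for Cyp1a2 and -0.0047 for Csad, and without the 4n-whole library of mouse 2 Cyp2e1 was at 0.295. With each mouse left out, they ranged from -0.12 to 0.28 for Cyp2e1, -0.083 to 0.24 for Cyp1a2 and -0.026 to 0.20 for Csad. The cause was not tested. Over all alternatives, 846 log2 fold changes of named genes kept their sign and were not called. Another 9 kept it and were called, and 12 turned sign. No limit was set on their size, and Mki67, at 1.08 in the main fit, ranged from 0.67 to 2.47. Of the list medians, 559 moved by less than the standard deviation of the medians of the 3 mice, and 40 moved by more. 3 matched mice and low counts limit what could be detected below 10 CPM.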

Other observations

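Clock, interferon and histone genes also had 0 genes called between 4n-whole and 4n-top. Of 17 circadian clock genes, 14 had a log2 fold change above 0, with a median of 0.10, and 0.06 without the 4n-whole library of mouse 2. Per1, a light- and hormone-responsive clock gene, was at 9.83, 7.22, 53.7 and 16.37 CPM in 4n-whole and at 3.99, 53.5 and 10.3 CPM in 4n-top, and mouse 3 was high in both. Of 42 interferon response and MHC class I genes, 3 were higher and 1 lower in 4n-whole at an unadjusted p under 0.05, with a median of -0.01, and 2 were higher and 0 lower without that library. Stat2, a signal transducer of type I interferon, had a log2 fold change of 0.32 (95% interval 0.06 to 0.59) and was higher in 4n-whole in each matched mouse, but was 0.17 without the 4n-whole library of mouse 2. Of 34 replication-dependent histone genes 1 was higher and 1 lower at that threshold.

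Among 30 hepatocyte transcription factors, 1 was higher and 2 were lower in 4n-whole at an unadjusted p under 0.05. Nr2f2, an orphan nuclear receptor gene, was at 25.2, 24.3, 30.2 and 21.6 CPM in 4n-whole and at 28.8, 40.8 and 30.6 CPM in 4n-top (log2 fold change -0.39, 95% interval -0.68 to -0.11). Foxa3, a forkhead factor gene, had a log2 fold change of -0.30 and was lower in 4n-whole in each matched mouse. Neither passed the adjusted threshold (adjusted p = 0.984 for both, edgeR).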
